A study of Mus musculus with 9 samples.

Results

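Focal adhesions are the plaques at which integrins, the receptors that span the cell membrane, are tied to the actin cytoskeleton. Talin and kindlin bind the integrin tail and switch the receptor on, the ILK, PINCH and parvin complex docks beside them, and vinculin, zyxin and tensin strengthen the link to actin while focal adhesion kinase and paxillin pass signals on. In podocytes, the epithelial cells that wrap the capillaries of the glomerulus, these plaques hold the foot processes to the basement membrane.

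The 10 genes described here encode the adaptor proteins of these plaques, namely Ptk2, Pxn, Tln1, Ilk, Parva, Lims1, Fermt2, Vcl, Zyx and Tns1. They were taken by symbol from a deposited table of 25655 genes, and all 10 had enough counts to be tested among 11800 tested genes. RNA was measured in an immortalized line of wild-type mouse podocytes, which grows at 33 °C and was kept at 37 °C for 10 to 14 days to differentiate. The groups were cells that received siRNA 1 against Usp40 (s105625 in the labels), cells that received siRNA 2 against Usp40 (s105626), and control cells that received Silencer Select Negative Control No.1 siRNA, with 3 libraries in each group. Cells of every group were transfected with Lipofectamine RNAiMAX and collected 48 h later. A single cell line was used, the replicates are labelled biological without a statement that they were grown apart, and the p-values therefore measure the spread between these libraries. The study asked what a loss of Usp40, a deubiquitinating enzyme, does to the transcripts of these cells.

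The libraries held 9786270 to 13675426 gene counts each, and every one of the 10 genes had between 1201 and 7134 counts in every library. Levels are given as CPM (counts scaled to a common library size by TMM factors) where a gene is compared between libraries, and as TPM (which also allows for transcript length) where genes are compared with each other. Usp40 itself had 14.7, 15.6 and 16.9 CPM with siRNA 1 and 19.1, 17.3 and 21.2 CPM with siRNA 2, against 31.8, 33.8 and 40.9 CPM in the control libraries. It fell to 44.2% of control with siRNA 1 and to 54.2% with siRNA 2 (edgeR adjusted p = 0.000727 and 0.00047). Of 14 podocyte markers, 13 were in the table and 7 were tested. The defining markers were at or near 0, with 2 counts of Nphs1, 13 of Lmx1b and 40 of Wt1 over all 9 libraries and none of Ptpro or Tcf21, which allows up to 3 counts. Synpo, an actin-binding protein of podocytes, had 11953 counts over all libraries. Of 11 tubular and parietal cell markers 7 were tested, with 82923 counts of Cdh16, 31882 of Pax2, 25815 of Aqp1 and 20553 of Pax8 over all libraries, while Krt18 and Umod had 2 counts each, Slc12a3 had 1 and Aqp2 had none. The podocyte list summed to 826 to 949 CPM with siRNA 1, 715 to 820 CPM with siRNA 2 and 686 to 899 CPM in controls. The 11 tubular and parietal markers summed to 1880 to 1930 CPM with siRNA 1, 1780 to 2020 CPM with siRNA 2 and 1810 to 1980 CPM in controls, and both sums overlapped between the siRNA groups and the control. With siRNA 2, Aqp1 and Cldn1 of the tubular list and Cd2ap and Efnb1 of the podocyte list were called. The 8 endothelial markers, of which 3 were tested, summed to 17.7 to 21.0 CPM with siRNA 1 and 20.9 to 24.0 CPM with siRNA 2, against 11.6 to 16.2 CPM in controls. Most of those counts came from Flt1 (987 over all libraries, called with siRNA 2) and Ehd3 (821), while Pecam1 had 41 counts, Cdh5 2 and Emcn none. The part of these markers in the results below was not tested. In RNA from whole cultures, fewer cells that express a gene and less of its RNA per cell cannot be told apart.

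In control cells all 10 genes were well expressed, and their mean levels ran from 49.6 to 146 TPM. Fermt2, which encodes kindlin-2, an activator of integrins, was the highest, with 143, 148 and 148 TPM. Ilk, the scaffold of the ILK complex, followed with 126, 126 and 132 TPM. Fermt2 lay above Ilk in every control library, and it was the only gene in the order that stood clear of the next. Pxn (118 ± 18.7 TPM), Zyx (114 ± 6.44 TPM) and Tln1 (108 ± 24.7 TPM, SD, n = 3 each) came after Ilk, with overlapping libraries. Lims1 had 80.7 ± 7.35 TPM and Vcl 74.7 ± 20 TPM (SD, n = 3), again with overlap. At the low end Parva had 50.8 ± 4.76 TPM, Ptk2 50.5 ± 9.22 TPM and Tns1 49.6 ± 12.3 TPM (SD, n = 3 each), and none of these neighbours was separated. Among all tested genes these control levels lay between percentiles 68.6 and 89.7. The first control library gave the lowest value of the 3 for each of these genes except Ilk.

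Related genes of the same families were set beside them, from a list of 17 of which 13 were tested. For the integrin activators the listed relatives were low in control cells, with 2.98 TPM of Tln2, 0.568 TPM of Fermt3 and no count of Fermt1, which allows up to 3 counts over all libraries. In the ILK complex Parvb had 1.03 TPM and Parvg 0.0217 TPM, against 50.8 TPM of Parva, and Lims2 had 0.448 TPM, against 80.7 TPM of Lims1. Ptk2b, the kinase most like Ptk2, had 26.5 TPM, and the paxillin relatives Lpxn and Tgfb1i1 had 2.52 and 0.565 TPM. In the zyxin and tensin families the listed relatives had at least 29.9 TPM, except Tns4, a tensin with 0.0293 TPM. Trip6, a LIM protein of the zyxin family, had 143 TPM and Ajuba, of the same family, 98.2 TPM, against 114 TPM of Zyx. The other listed zyxin relatives were lower, with 46.7 TPM of Limd1, 38.9 TPM of Fblim1 and 29.9 TPM of Lpp. Tns2 had 45.9 TPM and Tns3 36.8 TPM, near the 49.6 TPM of Tns1.

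**Figure D1:**
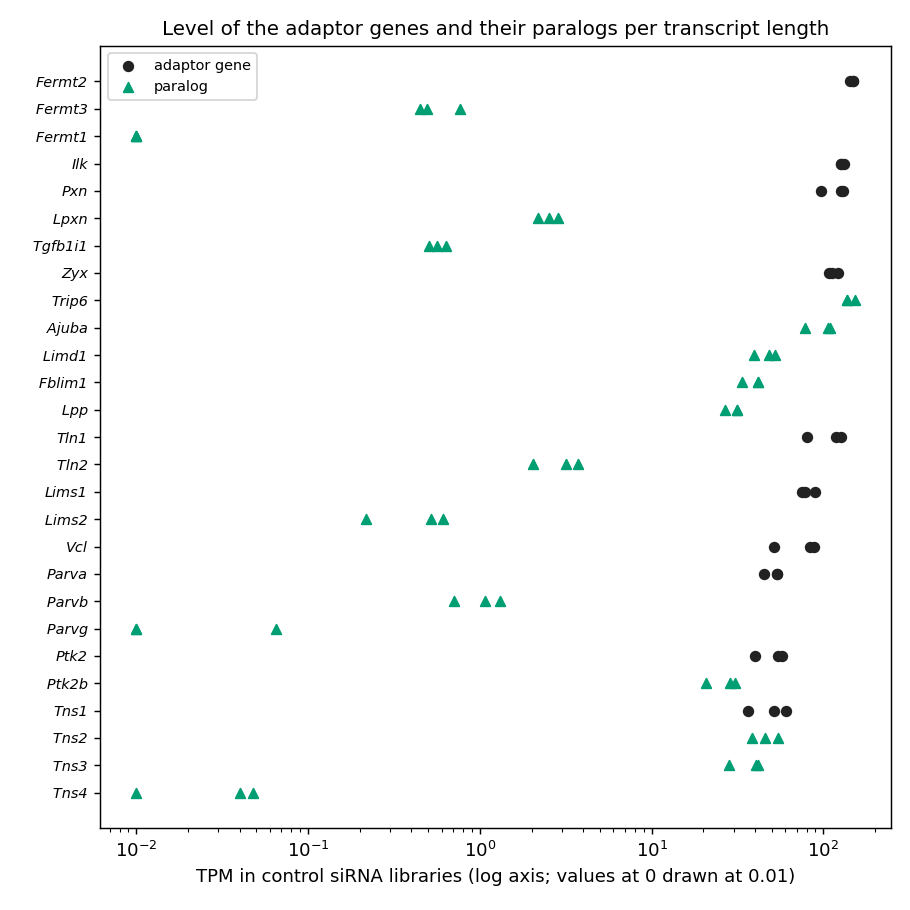
Level in the control cells of the 10 adaptor genes (black circles) and of related genes of the same families (green triangles), in TPM on a log axis, with 1 point for each of the 3 control libraries and values of 0 drawn at 0.01. Fermt2 is the highest adaptor gene at 146 TPM and Tns1 the lowest at 49.6 TPM, while Fermt3, Lims2 and Parvg lie below 1 TPM.

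Against the control, 3 of the 10 genes passed the test with siRNA 2 and none with siRNA 1. Tns1 rose and Fermt2 and Vcl fell with siRNA 2, at 145%, 64.4% and 69.6% of their control levels. Fermt2 and Vcl also differed between the siRNAs, with higher levels under siRNA 1. These 3 calls, 1 higher and 2 lower, stand beside 16.2% of all tested genes called with siRNA 2 (7.81% higher and 8.4% lower). With siRNA 1, 1.65% of all tested genes were called (0.627% higher and 1.03% lower). For siRNA 1 the edgeR test called 0 of the 10 genes, and so did DESeq2 and limma-voom, while 2 of them (Zyx and Tns1) had an unadjusted p under 0.05 in edgeR. Between the siRNAs, 2 of the 10 genes were called, both higher with siRNA 1, beside 6.74% of all tested genes (4.25% higher and 2.49% lower). In the average of both siRNAs over control, Tns1 rose (log2 0.48, edgeR adjusted p = 0.0432) and Fermt2 fell (log2 -0.35, edgeR adjusted p = 0.00881), beside 7.32% of all tested genes (3.04% higher and 4.28% lower). This Tns1 call ended without any 1 library but control replicate 3 and siRNA 1 replicate 1 (adjusted p up to 0.136). Since both siRNAs were compared with the same control libraries, their values are given side by side and no likeness is drawn from them. The median log2 fold change of the 10 genes was 0.14 with siRNA 1 and 0.10 with siRNA 2, and that of all tested genes was 0.01 and -0.01.

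Without a test, the libraries of siRNA 1 did not overlap the control libraries for 2 genes, Zyx and Tns1, both higher, beside 16.6% of all tested genes (7.94% higher and 8.65% lower). With siRNA 2 they stood apart for 6 genes, higher for Tln1, Parva, Zyx and Tns1 and lower for Ilk and Fermt2, beside 38.6% of all tested genes (19.5% higher and 19.1% lower). Between the siRNAs, Ilk, Fermt2 and Vcl lay higher and Ptk2 lower in all siRNA 1 libraries than in all siRNA 2 libraries, beside 30.9% of all tested genes (15.6% higher and 15.3% lower). The summed level of the 10 genes was 939, 1090 and 954 TPM with siRNA 1 and 1040, 928 and 1010 TPM with siRNA 2, against 802, 967 and 993 TPM in controls. The sums overlapped between all groups.

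**Figure D2:**
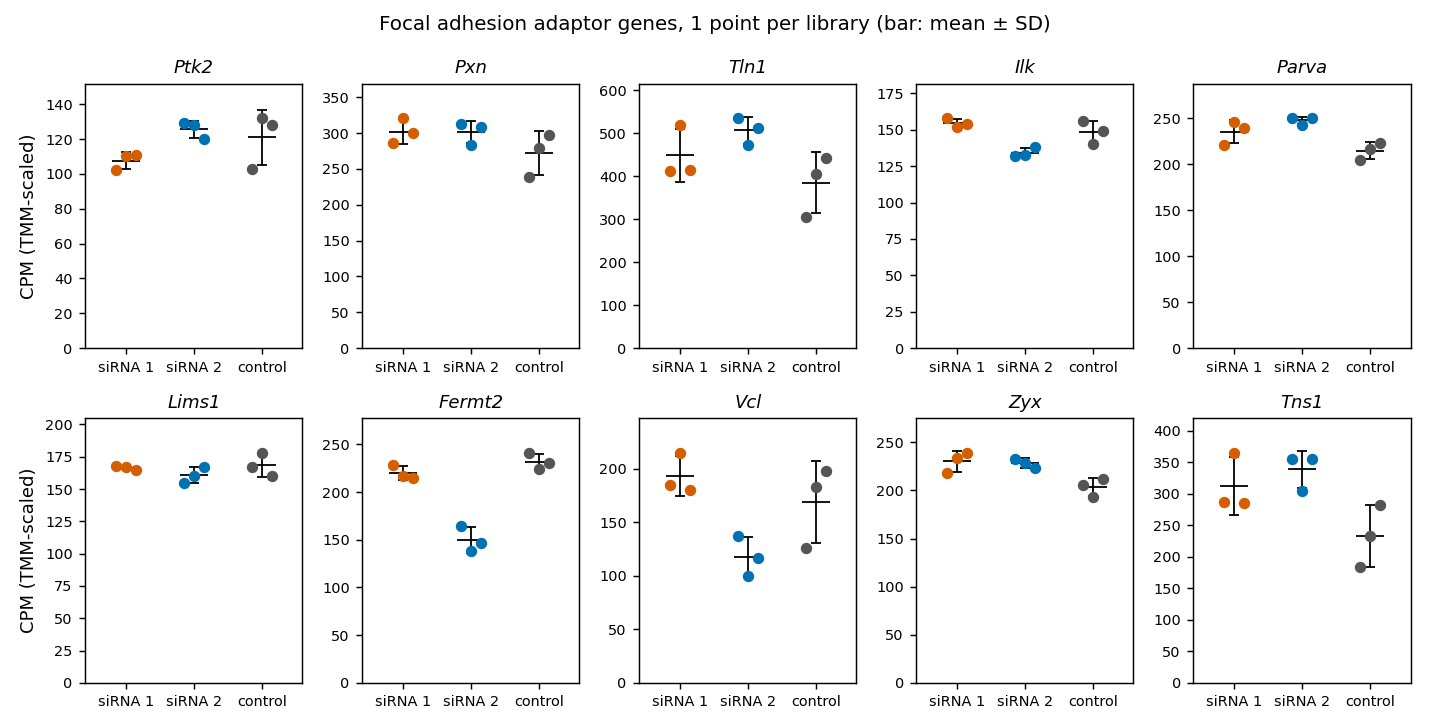
TMM-scaled CPM of each adaptor gene in every library, with 1 point for each library and the mean with its SD for each group (siRNA 1, siRNA 2 and control, 3 libraries each). Fermt2 is lower in all siRNA 2 libraries (138 to 164 CPM) than in all control libraries (224 to 241 CPM), and the first control library is the lowest of all 9 for Tns1 and Tln1.

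The promoters of the 3 genes that changed with siRNA 2 were set side by side, because Vcl is a textbook target of serum response factor, which binds a sequence called the CArG box in genes of the actin cytoskeleton. Windows from 250 bases before to 50 bases after an annotated start are in the RefSeq table (GRCm38.p6) for 7 of the 10 genes, and not for Ptk2, Pxn and Parva. The sequences below were located by the first 200 bases of that window and read from GRCm39, in which the Fermt2 window differs from RefSeq at 1 base. They are written 5′ to 3′ on the gene's strand, Fermt2 at chr14:45767473-45767772 (minus strand), Vcl at chr14:20979216-20979515 (plus strand) and Tns1 at chr1:74163658-74163957 (minus strand), with matches to the CArG box in capitals.
Fermt2: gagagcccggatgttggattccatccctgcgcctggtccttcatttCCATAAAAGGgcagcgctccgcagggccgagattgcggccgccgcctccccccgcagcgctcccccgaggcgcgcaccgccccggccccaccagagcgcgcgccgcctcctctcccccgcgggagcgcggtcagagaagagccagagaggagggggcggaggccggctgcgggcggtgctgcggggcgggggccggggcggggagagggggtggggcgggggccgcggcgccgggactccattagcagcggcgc
Vcl: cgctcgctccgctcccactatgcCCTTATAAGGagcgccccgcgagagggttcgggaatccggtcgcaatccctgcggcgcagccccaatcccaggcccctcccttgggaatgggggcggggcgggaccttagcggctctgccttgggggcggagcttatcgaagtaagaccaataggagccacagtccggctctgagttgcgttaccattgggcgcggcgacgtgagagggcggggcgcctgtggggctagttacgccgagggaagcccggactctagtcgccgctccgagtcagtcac
Tns1: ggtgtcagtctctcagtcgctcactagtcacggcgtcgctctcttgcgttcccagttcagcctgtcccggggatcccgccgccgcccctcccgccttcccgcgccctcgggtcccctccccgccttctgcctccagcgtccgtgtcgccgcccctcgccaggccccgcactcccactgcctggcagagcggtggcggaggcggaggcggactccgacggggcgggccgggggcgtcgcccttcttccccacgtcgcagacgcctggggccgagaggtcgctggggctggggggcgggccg

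The match CCTTATAAGG in Vcl begins at -227 from the RefSeq start and CCATAAAAGG in Fermt2 at -204. The Tns1 window holds no match to these letters. Other annotations start Fermt2 further upstream, at 45767575 in the deposited span and at 45767770 in GENCODE. The Fermt2 match lies inside the GENCODE gene, and the start used in these cells was not tested. The other motifs searched, on both strands, were GGAATG (bound by TEAD factors), GGGCGG (SP1), TGANTCA (AP-1) and CCAAT (NF-Y), and none of them shares a base with the CArG box matches. Of the 7 genes with a window, the CArG box occurred in Fermt2 and Vcl, GGAATG in Vcl, TGANTCA in Zyx, CCAAT in Lims1 and Vcl, and GGGCGG in 6. Over all 32851 windows in the table these motifs occurred in 1.63%, 14.7%, 7.81%, 37.4% and 35.7%. These are shares of windows over tested and untested genes, and the 7 genes have 10 windows. Counted by gene, the motifs occurred in 147, 1318, 563, 4090 and 6629 of the 9375 tested genes with any window. The motifs were picked after the values of Fermt2 and Vcl were known, and a match is not a binding site. Of the 147 tested genes with a CArG box in their window, siRNA 2 called 8.84% higher and 11.6% lower, beside 7.57% and 8.41% of the 9375 tested genes with any window.

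Of the integrin activators, Fermt2 (ENSMUSG00000037712, GRCm39 chromosome 14, 45696252 to 45767575, minus strand) passed the test with siRNA 2. It had 228, 217 and 215 CPM with siRNA 1 and 164, 138 and 147 CPM with siRNA 2, against 241, 224 and 230 CPM in the control libraries. All siRNA 2 libraries lay below all others, while the siRNA 1 libraries overlapped the controls. Fermt2 averaged 149 ± 13.4 CPM with siRNA 2 and 232 ± 8.43 CPM in controls (SD, n = 3 each), a log2 fold change of -0.63 (SE 0.0746, 95% interval -0.80 to -0.47, edgeR adjusted p = 0.000315). For siRNA 1 over control the log2 fold change was -0.07 with an interval of -0.23 to 0.09 (edgeR adjusted p = 0.709). Set directly against siRNA 2, Fermt2 was at 148% with siRNA 1 (log2 0.56, SE 0.0746, edgeR adjusted p = 0.000756). These calls held under every alternative that was run.

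Tln1 (chromosome 4, 43531519 to 43562691, minus strand) encodes talin-1, which activates integrins and carries the vinculin binding sites. It had 412, 519 and 414 CPM with siRNA 1 and 535, 473 and 512 CPM with siRNA 2, against 306, 405 and 443 CPM in controls. Every siRNA 2 library lay above every control library, and the siRNA 1 libraries overlapped both. With siRNA 2 its log2 fold change was 0.40 (SE 0.13, 95% interval 0.11 to 0.68) and missed the threshold (edgeR adjusted p = 0.0567). It passed without control replicate 3 (edgeR adjusted p = 0.0222) and without siRNA 1 replicate 2 (edgeR adjusted p = 0.0344), with upper quartile factors (0.0442) and in DESeq2 (adjusted p = 0.0224). Leaving out 1 library gave log2 values from 0.26 (control replicate 1) to 0.51 (control replicate 3), with adjusted p up to 0.167, and the length offset described below gave 0.24. With siRNA 1 it was 0.22 (edgeR adjusted p = 0.5).

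Within the ILK, PINCH and parvin complex, none of the genes passed the test in any contrast. Ilk (chromosome 7, 105385799 to 105392132, plus strand) encodes the pseudokinase at its centre. It had 158, 152 and 154 CPM with siRNA 1 and 132, 133 and 138 CPM with siRNA 2, against 156, 140 and 149 CPM in controls. The siRNA 2 libraries were the lowest, and the log2 fold changes were -0.14 for siRNA 2 over control and 0.20 for siRNA 1 over siRNA 2 (edgeR adjusted p = 0.144 and 0.0844). Between the siRNAs the difference passed without control replicate 1 (edgeR adjusted p = 0.0403) and in a fit of those groups alone (0.0336). The deposited span of Ilk overlaps that of Taf10 on the opposite strand by 3533 bp. Taf10 had a log2 fold change of -0.36 with siRNA 2 (edgeR adjusted p = 0.0218), and the sources used here do not say if counting was by strand.

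Parva (chromosome 7, 112026712 to 112190899, plus strand) encodes alpha-parvin, the actin-binding subunit. It had 221, 246 and 239 CPM with siRNA 1 and 250, 243 and 250 CPM with siRNA 2, against 205, 216 and 223 CPM in controls. The siRNA 2 libraries all lay above the controls, with a log2 fold change of 0.21 (SE 0.0663) that missed the threshold (edgeR adjusted p = 0.0517). It passed without control replicate 3 (edgeR adjusted p = 0.0438), without siRNA 1 replicate 2 (0.0484), with upper quartile factors (0.0417) and in DESeq2 (adjusted p = 0.0208). With the length offset described below its log2 value was 0.00 (edgeR adjusted p = 0.982). Lims1 (chromosome 10, 58159288 to 58260513, plus strand) encodes PINCH1, the LIM-domain subunit. It had 165 to 168 CPM with siRNA 1, 155 to 167 CPM with siRNA 2 and 160 to 178 CPM in controls. All 3 groups overlapped, and the intervals of its log2 fold changes were -0.15 to 0.13 with siRNA 1 and -0.21 to 0.07 with siRNA 2.

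Among the genes that tie the plaque to actin, Vcl (ENSMUSG00000021823, chromosome 14, 20979466 to 21083744, plus strand) encodes vinculin, which joins talin to actin filaments. It had 185, 215 and 180 CPM with siRNA 1 and 137, 99.7 and 117 CPM with siRNA 2, against 126, 183 and 198 CPM in controls. All siRNA 2 libraries were below all siRNA 1 libraries, but the first control library lay within the siRNA 2 range. Vcl fell by 0.52 on the log2 scale with siRNA 2 (SE 0.158, 95% interval -0.87 to -0.18, edgeR adjusted p = 0.0445). It was at 164% under siRNA 1 relative to siRNA 2 (log2 0.72, SE 0.158, edgeR adjusted p = 0.0194). For siRNA 1 over control it was 0.19 with an interval of -0.15 to 0.53 (edgeR adjusted p = 0.634).

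The call of Vcl with siRNA 2 ended under several alternatives, in each with the same sign. Its edgeR adjusted p was 0.123 without control replicate 2, 0.0971 without control replicate 3, and 0.0555 or 0.0616 when siRNA 1 replicate 1 or 3 was left out. Leaving out siRNA 2 replicate 2 or 3 gave 0.138 or 0.134. It was 0.0838 with no filter on low counts, 0.0547 with only the groups compared, and 0.0531 in limma-voom. The call between the siRNAs ended without siRNA 1 replicate 2 (edgeR adjusted p = 0.051) and without siRNA 2 replicate 2 or 3 (0.0888 and 0.0829). The deposited span of Vcl overlaps Ap3m1 on the opposite strand by 2235 bp, and Ap3m1 had a log2 fold change of -0.30 with siRNA 2 that did not pass the test (edgeR adjusted p = 0.115).

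Tns1 (ENSMUSG00000055322, chromosome 1, 73949390 to 74163608, minus strand) encodes tensin-1, which binds integrin tails and caps actin filaments. It had 287, 365 and 285 CPM with siRNA 1 and 355, 305 and 356 CPM with siRNA 2, against 184, 233 and 282 CPM in controls. Every library of both siRNAs lay above every control library, with the closest pair at 285 and 282 CPM. With siRNA 2 Tns1 rose to 145% of control (log2 0.54, SE 0.144, 95% interval 0.23 to 0.85, edgeR adjusted p = 0.0282). With siRNA 1 it was at 134% (log2 0.42, SE 0.144, 95% interval 0.11 to 0.74), which did not pass the test (edgeR adjusted p = 0.218). Between the siRNAs the log2 difference was -0.12 with an interval of -0.43 to 0.20 (edgeR adjusted p = 0.669). The siRNA 2 call ended when control replicate 1 or 2 was left out (edgeR adjusted p = 0.0611 and 0.08), and likewise for siRNA 2 replicate 1 or 3 (0.0934 and 0.105).

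Zyx (chromosome 6, 42326564 to 42337147, plus strand) encodes zyxin, a LIM protein that gathers at actin fibres under tension. It had 218, 234 and 239 CPM with siRNA 1 and 233, 229 and 223 CPM with siRNA 2, against 206, 193 and 212 CPM in controls. All siRNA libraries lay above all control libraries. The log2 fold changes were small, at 0.18 with siRNA 1 and 0.17 with siRNA 2 (SE 0.0659 each), and did not pass the test (edgeR adjusted p = 0.256 and 0.102).

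The signalling members did not pass the test in any contrast. Ptk2 (chromosome 15, 73076951 to 73295129, minus strand) encodes focal adhesion kinase. It had 102, 110 and 111 CPM with siRNA 1 and 129, 128 and 120 CPM with siRNA 2, against 103, 132 and 128 CPM in controls. The siRNA 1 libraries were all below the siRNA 2 libraries and overlapped the controls, with log2 fold changes of -0.17 for siRNA 1 over control and -0.22 for siRNA 1 over siRNA 2 (edgeR adjusted p = 0.453 and 0.177). Between the siRNAs the difference passed without control replicate 1 (edgeR adjusted p = 0.0339) and in a fit of those groups alone (0.0451). Pxn (chromosome 5, 115644735 to 115694046, plus strand) encodes paxillin, the docking protein for that kinase. Its levels of 286 to 321 CPM with siRNA 1 and 284 to 313 CPM with siRNA 2 overlapped those of 239 to 298 CPM in controls, and its log2 fold change was 0.15 with either siRNA, with an interval of -0.04 to 0.34.

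**Figure D3:**
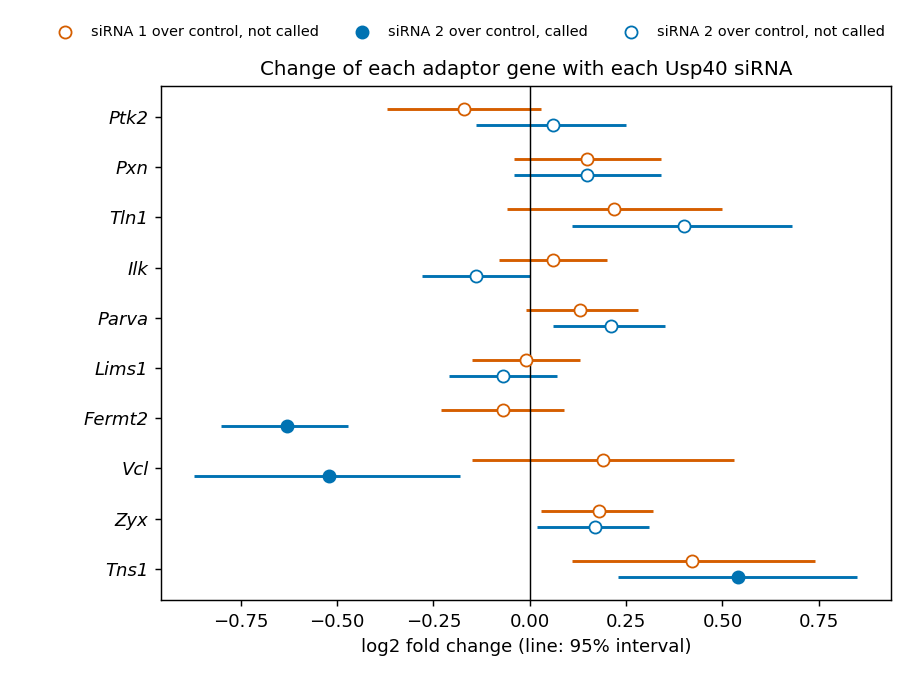
Log2 fold change of each adaptor gene over control with siRNA 1 and with siRNA 2, and its 95% interval from the edgeR fit of all 9 libraries, with filled points for genes called at an adjusted p under 0.05. Fermt2 (-0.63), Vcl (-0.52) and Tns1 (0.54) are the filled points, and each belongs to siRNA 2.

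The balance of long and short transcripts differed between the libraries. For each library the log2 deviations of the genes from their means were taken, and their median in the longest quartile (5677 bp or more) minus that in the shortest (2437 bp or less) was -0.178, 0.209 and -0.076 with siRNA 1 and 0.141, 0.065 and 0.226 with siRNA 2, against -0.375, -0.042 and 0.04 in controls. The siRNA 2 libraries all lay above the control libraries, and the first control library had the lowest value of all 9. The transcript lengths implied by the deposited values put Tns1 (12067 bp), Parva (10801 bp) and Tln1 (9136 bp) in the longest quartile, with Ptk2, Pxn and Vcl nearer its lower bound. Lims1, Zyx, Fermt2 (4036 bp) and Ilk (2957 bp) lay between both bounds. With an offset that removes this trend in each library, Tns1 passed the test with both siRNAs (log2 0.33 with each, edgeR adjusted p = 0.0263 with siRNA 1 and 0.00737 with siRNA 2). Tln1 then passed with siRNA 2 (log2 0.24, edgeR adjusted p = 0.0321), and Parva did not. Fermt2 and Vcl, with log2 fold changes of -0.66 and -0.60 for siRNA 2, stayed called (edgeR adjusted p = 2.66e-05 and 0.0111).

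**Figure D4:**
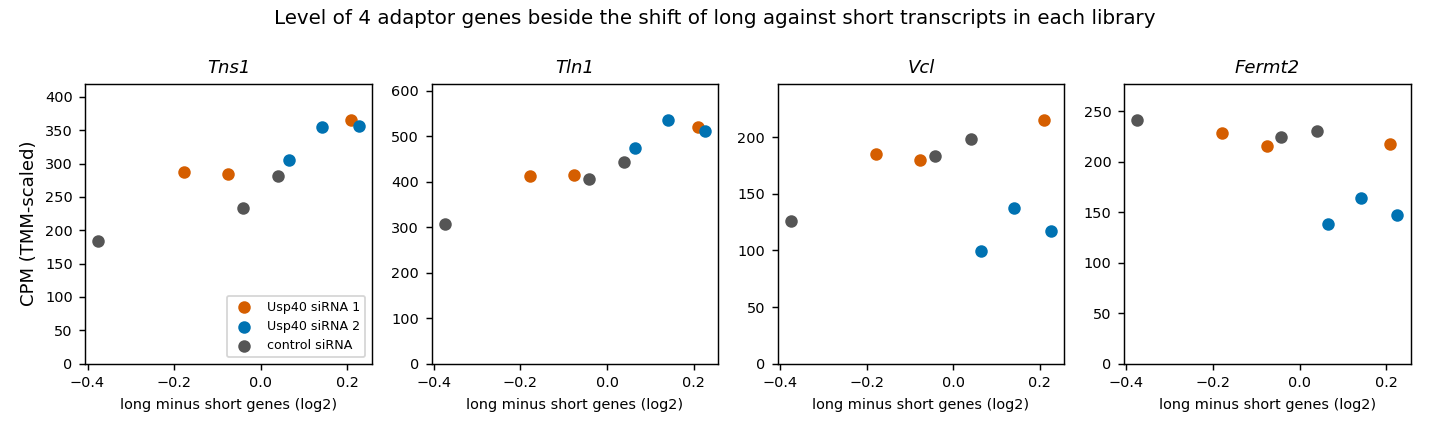
TMM-scaled CPM of Tns1, Tln1, Vcl and Fermt2 in every library against that library's log2 level of long relative to short genes, with 1 point for each library coloured by group. The first control library, at -0.375 on the horizontal axis, has the lowest Tns1 (184 CPM) and Tln1 (306 CPM), and the Fermt2 points of siRNA 2 lie below all others.

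The authors' deposited comparisons are written as control over siRNA, so their signs run the other way. In the authors' deposited table Fermt2 had a log2 value of 0.64 for control over siRNA 2 with an adjusted p of 7.28e-09. Vcl had 0.53 and Tns1 -0.53 in the authors' deposited table, with an adjusted p of 0.00152 each, and Tln1 had -0.39 with an adjusted p of 0.0202. For control over siRNA 1 the authors' deposited table gave Tns1 -0.41 with an adjusted p of 0.0687.

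Genes elsewhere in the plaque gave the setting for these values. Of 60 other focal adhesion genes, 57 were tested, and siRNA 1 called 1 higher and 2 lower while siRNA 2 called 6 higher and 6 lower. These are 5.26% and 21.1% of the list, beside 1.65% and 16.2% of all tested genes. The median log2 fold change of the list was 0.07 with siRNA 1 and 0.13 with siRNA 2. Crk, an adaptor that binds phosphorylated paxillin, rose with both siRNAs. It had 197, 205 and 195 CPM with siRNA 1 and 203, 204 and 209 CPM with siRNA 2, against 141, 144 and 137 CPM in controls, and no siRNA library overlapped a control library. Its log2 fold changes were 0.50 (SE 0.0597, edgeR adjusted p = 0.00217) and 0.55 (SE 0.0597, edgeR adjusted p = 0.000181), and both calls held under every alternative that was run.

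Several other plaque genes were called with at least 1 siRNA. With siRNA 2 the related adaptor Crkl fell to 59.7, 48.7 and 54.4 CPM, against 69.6, 75.3 and 79.0 CPM in controls (log2 -0.46, edgeR adjusted p = 0.00549). Palld, the actin cross-linker palladin, fell with siRNA 2 to 115, 95.6 and 106 CPM, against 159, 159 and 163 CPM in controls (log2 -0.61, edgeR adjusted p = 0.000466). Kank2, which binds talin, fell by 0.49 on the log2 scale with siRNA 2 (edgeR adjusted p = 0.00274). For all 3 genes the siRNA 1 libraries lay above every control library, with log2 fold changes of 0.21, 0.17 and 0.14 that did not pass the test. Nck2, an adaptor for phosphorylated tyrosines, fell with siRNA 1 to 24.4, 21.9 and 24.1 CPM, against 34.2, 36.3 and 35.3 CPM in controls (log2 -0.59, edgeR adjusted p = 0.00325), and with siRNA 2 it was at 38.5 to 42.2 CPM (log2 0.21, edgeR adjusted p = 0.0805). Cav1, the coat protein of caveolae, fell by 0.33 on the log2 scale with both siRNAs (edgeR adjusted p = 0.0306 with siRNA 1 and 0.00849 with siRNA 2).

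Other calls with siRNA 2 were closer to the threshold. Dlc1, which encodes a GTPase-activating protein bound by tensins, rose by 0.52 and the phosphatase gene Ptpra by 0.26 on the log2 scale (edgeR adjusted p = 0.0412 and 0.0348). Among the 13 tested relatives of the adaptor genes, siRNA 1 called none in edgeR, DESeq2 or limma-voom (1 had an unadjusted p under 0.05 in edgeR) and siRNA 2 called 2, or 15.4%, near the 16.2% of all tested genes called with siRNA 2. With siRNA 1 that share was 1.65% of all tested genes. Ptk2b rose by 0.35 and Ajuba fell by 0.35 on the log2 scale (edgeR adjusted p = 0.0431 and 0.0327). The calls of Dlc1, Ptpra and Ptk2b each ended without control replicate 1 or 2, without siRNA 1 replicate 3 and without any 1 siRNA 2 replicate, with adjusted p up to 0.153, 0.147 and 0.138. That of Ajuba ended without control replicate 2 or 3 and without any 1 siRNA 2 replicate (adjusted p up to 0.125). The Cav1 call with siRNA 1 ended without any 1 library but control replicate 1 (adjusted p up to 0.161).

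Integrin subunits form the receptors of the plaque. Of 19 subunits, 13 were tested, and siRNA 1 called 1 lower while siRNA 2 called 2 higher and 2 lower. These are 7.69% and 30.8% of the tested subunits, beside 1.65% and 16.2% of all tested genes, and their median log2 fold changes were 0.02 and 0.07. Itgav, the alpha-v subunit, fell with siRNA 2 to 111, 83.2 and 94.3 CPM, against 181, 192 and 176 CPM in controls (log2 -0.93, edgeR adjusted p = 0.000148). Its partner Itgb6 fell by 0.56 on the log2 scale (edgeR adjusted p = 0.0145). Itga6, a laminin receptor subunit, rose by 0.67 and Itga9 by 0.53 (edgeR adjusted p = 0.0168 and 0.00531). Itgb1, the beta subunit shared by many integrins, fell with siRNA 1 to 967, 942 and 931 CPM, against 1200, 1240 and 1200 CPM in controls (log2 -0.36, edgeR adjusted p = 0.015). With siRNA 2 Itgb1 had a log2 fold change of 0.04 (edgeR adjusted p = 0.668). The Itgb1 call ended without control replicate 2 or siRNA 1 replicate 2 or 3 (adjusted p up to 0.109). That of Itga6 ended without control replicate 2 or siRNA 2 replicate 1 or 3, and that of Itgb6 without siRNA 2 replicate 3 (adjusted p up to 0.0746 for each).

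**Figure D5:**
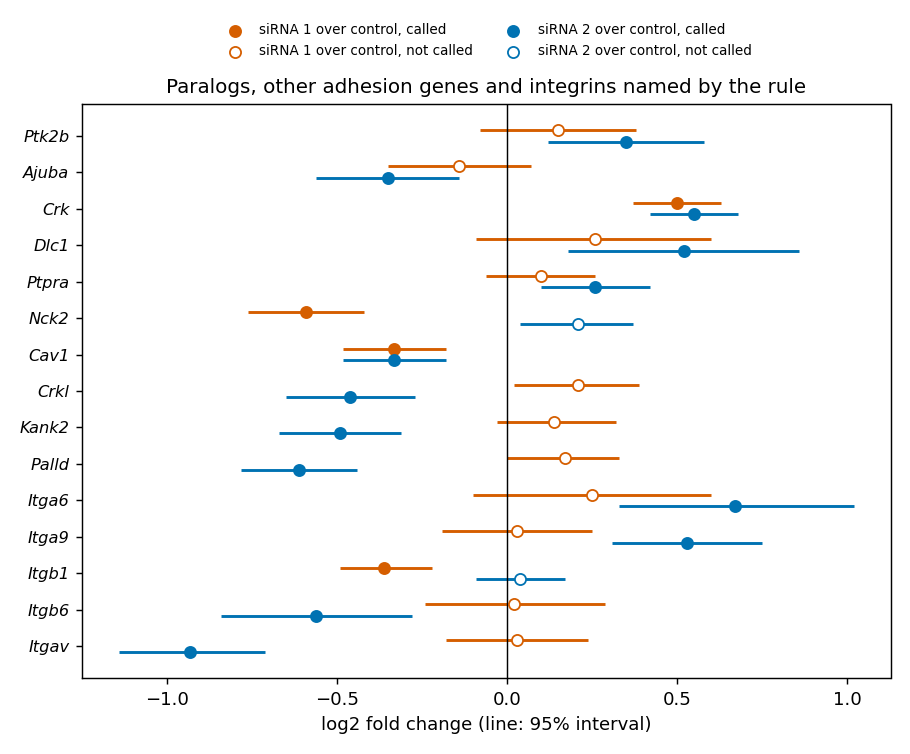
Log2 fold change over control with its 95% interval, with siRNA 1 and with siRNA 2, for 15 related, other plaque and integrin genes that passed the test with at least 1 siRNA, with filled points for called values. Crk is called with both siRNAs (0.50 and 0.55), and Itgav has the lowest value, -0.93 with siRNA 2.

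The genes whose levels moved most like those of the 3 changed adaptors over the 9 libraries were found by the root mean square difference of centred log2 CPM, among 9507 genes with a mean of at least 10 CPM. Nearest to Fermt2 were Swt1 and Cox15, at 0.055 and 0.056, where Fermt2 itself varied by 0.292. Nearest to Vcl were Baz2a and Pom121, at 0.094 and 0.116, where Vcl varied by 0.365. Nearest to Tns1 were Tnc, which encodes the matrix protein tenascin-C, and Ptpn13, at 0.05 and 0.065, where Tns1 varied by 0.301. The 9 libraries share their groups, so these distances are a description.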

How the data were processed

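The authors deposited 1 table of all 9 libraries. Per the file headers it gives the total counts of reads per gene, RPKM, TPM and the authors' own scaled CPM (a signal) in each library. The authors' comparisons stand beside them, with a deposited log2 value, a deposited score (a linear fold with a sign) and deposited p-values. The submitters' processing notes name CLC Genomics Workbench 23.02, DESeq2 and the GRCm39 build. A further 4 deposited columns, of the highest group mean, were not used. For the annotation release and the use of strand in counting, the sources used here name nothing. Per the labels' protocols, 1250 ng of RNA went through poly(A) selection, a strand-specific kit with 12 PCR cycles and 36 bp paired sequencing, all in batch 1.

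The deposited counts were tested here with edgeR 4.0.16 (R 4.3.3), by its quasi-likelihood test with robust estimation and TMM factors, in a model of the 3 groups fitted to all 9 libraries. The filter filterByExpr removed 13855 genes. P-values were adjusted by Benjamini-Hochberg over all 11800 tested genes within a contrast, and 0.05 was the threshold for a call. Standard errors were derived from the F value, and intervals are 95%. The biological coefficient of variation was 8.56%. Deposited TPM values were used for levels between genes, and RPKM served to find the transcript length behind each value. The alternatives were other scaling factors, other filters, DESeq2 1.42.0, limma-voom (limma 3.58.1), estimation that is not robust, only the groups compared, a replicate block, a length offset (loess, span 0.3) and leaving out each library. No molecular identifiers are named, so the limit set for a count of 0 covers counting error alone.

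The genes, lists, motifs and tests were chosen with earlier results of these data known. Of each other list, up to 4 called genes per direction with the largest change and a mean of at least 2 CPM are named. A few single genes are left out of the text, though the counts over lists include them.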

Additional observations from a re-analysis of the deposited data

Results flagged for a closer look

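The direct contrast of siRNA 1 with siRNA 2 passed the test for 2 of the 10 adaptor genes and for 8 of the 15 related, other plaque and integrin genes named above, beside 6.74% of all tested genes. Those 15 genes were named because they were called with an siRNA, so no share among them is read against that of all genes. Of the adaptor genes these were Vcl, at 0.72 on the log2 scale for siRNA 1 over siRNA 2, and Fermt2, at 0.56 (edgeR adjusted p = 0.0194 and 0.000756). Of the integrin subunits, Itgav was higher with siRNA 1 by 0.96 and Itgb6 by 0.58 (edgeR adjusted p = 0.000147 and 0.0175). Itgb1 and Itga9 were lower with siRNA 1, at -0.40 and -0.50 (edgeR adjusted p = 0.0022 and 0.0104). Of the other plaque genes, Palld was higher with siRNA 1 by 0.77, Crkl by 0.67 and Kank2 by 0.64 (edgeR adjusted p = 0.000133, 0.000689 and 0.000659). Nck2 was lower with siRNA 1, at -0.79 (edgeR adjusted p = 0.000131). For Itgb1 and Nck2 the siRNA 1 libraries stood away from the controls, and for the other 8 genes the siRNA 2 value was the one called against control. Without 1 library, the direct contrast missed the threshold for Vcl when siRNA 1 replicate 2 or siRNA 2 replicate 2 or 3 was left out (adjusted p up to 0.0888), for Itga9 when siRNA 1 replicate 3 was (0.0662), and for Itgb6 when siRNA 1 replicate 1 or 3 or any 1 siRNA 2 replicate was (up to 0.0954).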

How the results depend on the processing

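Among 750 refits of single adaptor genes, 696 kept the direction and the side of the threshold. A further 26 lost a call, 18 gained one and 10 turned the sign of a value that had not been called. Most of the 750 were refits of values not called, which could not lose a call. All 26 losses fell on Vcl and Tns1. Vcl lost its call in 10 of 19 refits with siRNA 2 and in 4 of 19 between the siRNAs. Tns1 lost its call in 4 of 19 with siRNA 2 and in 8 of 18 in the average. The calls of Fermt2 in siRNA 2 over control, in the average and between the siRNAs held in all of their refits (edgeR, DESeq2 or limma-voom adjusted p up to 0.00435, 0.0394 and 0.00919).

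The count of adaptor genes called higher with siRNA 1, 0 in the report, was 1 (Tns1) with the length offset. With siRNA 2 the 1 higher call became 3 with upper quartile factors or DESeq2 and 2 with the length offset, and the 2 lower calls became 1 with no filter on low counts, in limma-voom or with only the groups compared. In the average the 1 higher call became 0 with no filter and 3 in DESeq2. Between the siRNAs, with only the groups compared, 1 gene was called lower with siRNA 1 in place of 0. Leaving out 1 library gave 0 to 3 higher and 1 to 2 lower calls with siRNA 2, 0 to 2 higher calls in the average, and 1 to 3 higher and 0 to 1 lower calls between the siRNAs. In the average, the call of Tns1 ended in 8 of 18 alternatives.

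Over all tested genes, the length offset gave 367 calls with siRNA 1 in place of 195, 1438 in the average in place of 864 and 1222 between the siRNAs in place of 795. Using only the groups compared gave 37 calls with siRNA 1 and 1284 between the siRNAs. Leaving out 1 library gave 36 (siRNA 1 replicate 3) to 234 (control replicate 1) calls with siRNA 1, 636 (siRNA 2 replicate 3) to 2608 (control replicate 3) with siRNA 2, 174 (control replicate 2) to 1478 (control replicate 3) in the average, and 361 (siRNA 2 replicate 3) to 1335 (control replicate 1) between the siRNAs. Of the related genes, 2 were called with siRNA 2, which became 4 with the length offset, 1 with only the groups compared and 0 to 3 without 1 library. Of the other plaque genes, 3 were called with siRNA 1 and 5 with the length offset, and the 12 called with siRNA 2 became 5 to 23 without 1 library. The 1 integrin call with siRNA 1 became 0 with only the groups compared and 0 to 1 without 1 library, and the 4 with siRNA 2 became 2 to 5. The cause of these shifts was not tested, beyond the smaller number of libraries in some fits.

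Signs turned for values near 0. With the length offset, Ptk2 with siRNA 2 was -0.03, Parva between the siRNAs 0.04, and Itga9, Itgav and Itgb6 with siRNA 1 were -0.04, -0.03 and -0.02 on the log2 scale. Cav1 between the siRNAs was 0.00 with only the groups compared and ran from -0.03 to 0.02 without 1 library. Without 1 library, Ptk2 ran from -0.05 to 0.12 with siRNA 2 and from -0.16 to 0.01 in the average, Pxn from -0.04 to 0.04 and Zyx from -0.01 to 0.05 between the siRNAs, Lims1 from -0.05 to 0.03 with siRNA 1 and from -0.08 to 0.00 in the average, and Itga9 from -0.02 to 0.11 and Itgb6 from -0.08 to 0.11 with siRNA 1.

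Libraries with the same replicate number showed no steady likeness. Their deviations from the group means correlated at -0.138 to 0.427, and 4 of 9 libraries were closest to their own number. The value of 0.427 was that of replicate 1 of siRNA 1 and of control. With 3 libraries per group these values cannot exclude that the replicates were paired. With the replicate number as a block, 2 adaptor genes were called higher and 1 lower with siRNA 2, and 1 was called higher between the siRNAs. Under this replicate block the adjusted p of Vcl was 0.0969 with siRNA 2 and 0.067 between the siRNAs, and that of Tln1 with siRNA 2 was 0.0408. With 3 libraries per group, small shifts such as those of Pxn and Lims1 were not detectable beyond the intervals given.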
